A study of Mus musculus with 7 samples.

Results

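The genes described here are 10 core genes of antigen presentation by the major histocompatibility complex (MHC), chosen by gene name and function, with no threshold on a measured value. The class I arm held *H2-K1*, *H2-D1*, *B2m*, *Tap1* and *Tap2*, and the class II arm held *H2-Aa*, *H2-Ab1*, *H2-Eb1*, *Cd74* and *Ciita*. All 10 were present among the 21965 genes of the deposited count table, and all 10 passed the filter on low counts that left 15743 genes to test. The question was whether the 2 classes differed between genotypes in the contused mouse spinal cord at dpi 3, that is 3 days after injury.

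Poly-A RNASeq libraries were made from 5 mm of cord centred on the lesion, 1 library per mouse, after a contusion at T9 with a force of 50 kdyn and a displacement of 400 to 600 µm. The first group had 3 mice (2 females, 1 male) homozygous for the tm1Bra allele of *Arntl* (strain B6.129-Arntltm1Bra/J), a knockout in every cell of the body on a C57BL/6 background, given as C57Bl/6J in the study's methods. *Arntl* encodes BMAL1, the core activator of the circadian clock, and the group is called Bmal1-/- after it. The second group had 4 WT mice of the same C57BL/6 background (2 females, 2 males), of which 1 was a littermate of knockouts and the rest were bought. Mice were injured at 8 to 10 weeks of age, tissue was taken in the same morning hours in both groups, and blood was washed out by perfusion with saline. Every mouse was injured, so no uninjured level was measured.

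MHC class I molecules sit on nearly all nucleated cells and show peptides from inside the cell to CD8+ T cells. MHC class II molecules are made mainly by dendritic cells, macrophages, B cells and activated microglia, and show peptides from engulfed material to CD4+ T cells. In uninjured cord both are scarce on neural cells, and microglia and infiltrating macrophages are known to raise them after injury, largely under interferon gamma.

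Library totals ran from 38529644 to 44096737 counts. The count of *Arntl* went against the label: it was 22.5 to 24.2 CPM (counts scaled to a common library size) in the libraries labelled Bmal1-/- and 11.9 to 15.3 CPM in WT, a log2 fold change of 0.77 ± 0.10 (SE, adjusted p = 0.0155, edgeR quasi-likelihood test with Benjamini-Hochberg adjustment). This is a count over the whole gene, which an antisense gene, *Gm45355*, overlaps, and it does not separate the targeted part from the rest. Of the clock targets of BMAL1, *Dbp* fell by 1.85 on the log2 scale in the libraries labelled Bmal1-/- (adjusted p = 0.00328) and *Nr1d1* fell by 2.51 (adjusted p = 0.000456), both in the same edgeR fit. The group is therefore written as the libraries labelled Bmal1-/-. WT replicate 3 stood apart from the other libraries. It lay at the end of the first principal component, at 51.4 against 10.2 to 19.5 for the other WT libraries, and the libraries labelled Bmal1-/- lay between -48.6 and -18.3. The members' values and most list medians are therefore also given without it.

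None of the 10 genes lies on chromosome 7, the chromosome of *Arntl*. In GRCm38, 7 of them lie in the MHC region of chromosome 17, with *Tap1* (chr17:34187553-34197225), *Tap2* (chr17:34203527-34216321), *H2-Ab1* (chr17:34257689-34269419), *H2-Aa* (chr17:34282744-34287823) and *H2-Eb1* (chr17:34305867-34316674) standing as neighbours. *H2-K1* (chr17:33996017-34000347) lies to one side of this group and *H2-D1* (chr17:35262730-35267499) to the other. *B2m* (chr2:122147686-122153083), *Ciita* (chr16:10480059-10528418) and *Cd74* lie outside the MHC. All 10 are annotated as protein-coding.

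Promoters of both classes are known to share a module of an X box and a Y box, bound by the RFX complex, CREB and NF-Y. CIITA docks on it at class II genes and NLRC5 at class I genes. Promoter windows from RefSeq (GRCm38.p6, 250 bases before to 50 after a start site) were found for 6 of the 10 genes, namely *H2-K1*, *H2-D1*, *B2m*, *Tap1*, *H2-Aa* and *H2-Eb1*, and not for *H2-Ab1*, *Tap2*, *Cd74* and *Ciita*. The letters TGANG followed after 20 to 22 bases by ATTGG, on either strand, stood in 5 of these 6 genes, all but *Tap1*. The same pair stood in 314 of 32851 windows of the table (0.956%). The pair and its spacing were chosen with these windows in view, so the count is a description, and a match is not a bound site. The stretches around the pair are shown because they are the sequence feature the classes have in common. Capitals mark the searched letters TGANG and ATTGG, and TGANG is only a part of the X box. The stretches are from 3 genes of class I and then 2 of class II, each 5′ to 3′ on the gene's own strand. They come from chr17:34000339-34000448 (minus strand), chr17:35262933-35263042 (plus), chr2:122147549-122147658 (plus), chr17:34287847-34287957 (minus) and chr17:34305721-34305832 (plus), in this order.
H2-K1: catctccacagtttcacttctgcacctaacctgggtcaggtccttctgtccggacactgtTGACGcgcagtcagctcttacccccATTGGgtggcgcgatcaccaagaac
H2-D1: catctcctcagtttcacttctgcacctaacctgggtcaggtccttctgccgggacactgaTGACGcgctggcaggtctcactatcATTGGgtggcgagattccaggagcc
B2m: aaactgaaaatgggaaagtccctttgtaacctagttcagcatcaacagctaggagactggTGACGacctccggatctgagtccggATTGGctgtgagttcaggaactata
H2-Aa: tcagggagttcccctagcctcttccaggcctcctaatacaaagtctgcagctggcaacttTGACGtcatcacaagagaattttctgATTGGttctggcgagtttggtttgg
H2-Eb1: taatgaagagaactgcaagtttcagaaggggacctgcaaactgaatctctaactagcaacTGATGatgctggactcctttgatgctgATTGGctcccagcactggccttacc

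The spacing between TGANG and ATTGG was 20 bases in the 3 class I genes, 21 in *H2-Aa* and 22 in *H2-Eb1*. Of the other motifs searched on both strands, AANNGAAA, a short form of the interferon response element, stood in *H2-K1*, *H2-D1*, *B2m* and *H2-Aa*, against 23.9% of all windows. GGGNNTTCC, a short form of the NF-kB site, stood in *H2-K1*, *H2-D1* and *H2-Aa*, against 5.82%. CACGTG, the E-box that BMAL1 and CLOCK can bind, was not among the letters of these 6 genes' windows, against 7.15% of all windows.

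No member passed the test between genotypes. In the edgeR quasi-likelihood test 0 of 10 had an adjusted p under 0.05, where 1.57% of all genes tested did (0.915% lower in the libraries labelled Bmal1-/-). DESeq2 and limma-voom also called 0 of 10, where they called 1495 of 18916 and 206 of 15743 genes. At an unadjusted p under 0.05 the count was 1 of 10 (*Tap2*), where 20.9% of all genes were (12.2% lower and 8.64% higher). No member had groups free of overlap, where 26.9% of all genes did (13.5% lower and 13.4% higher). All 10 log2 fold changes were below 0, as were 51.1% over all genes. The medians were -0.053 for class I and -0.60 for class II, against -0.0057 over all genes tested. Without WT replicate 3 they were 0.014 and -0.23.

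**Figure D1:**
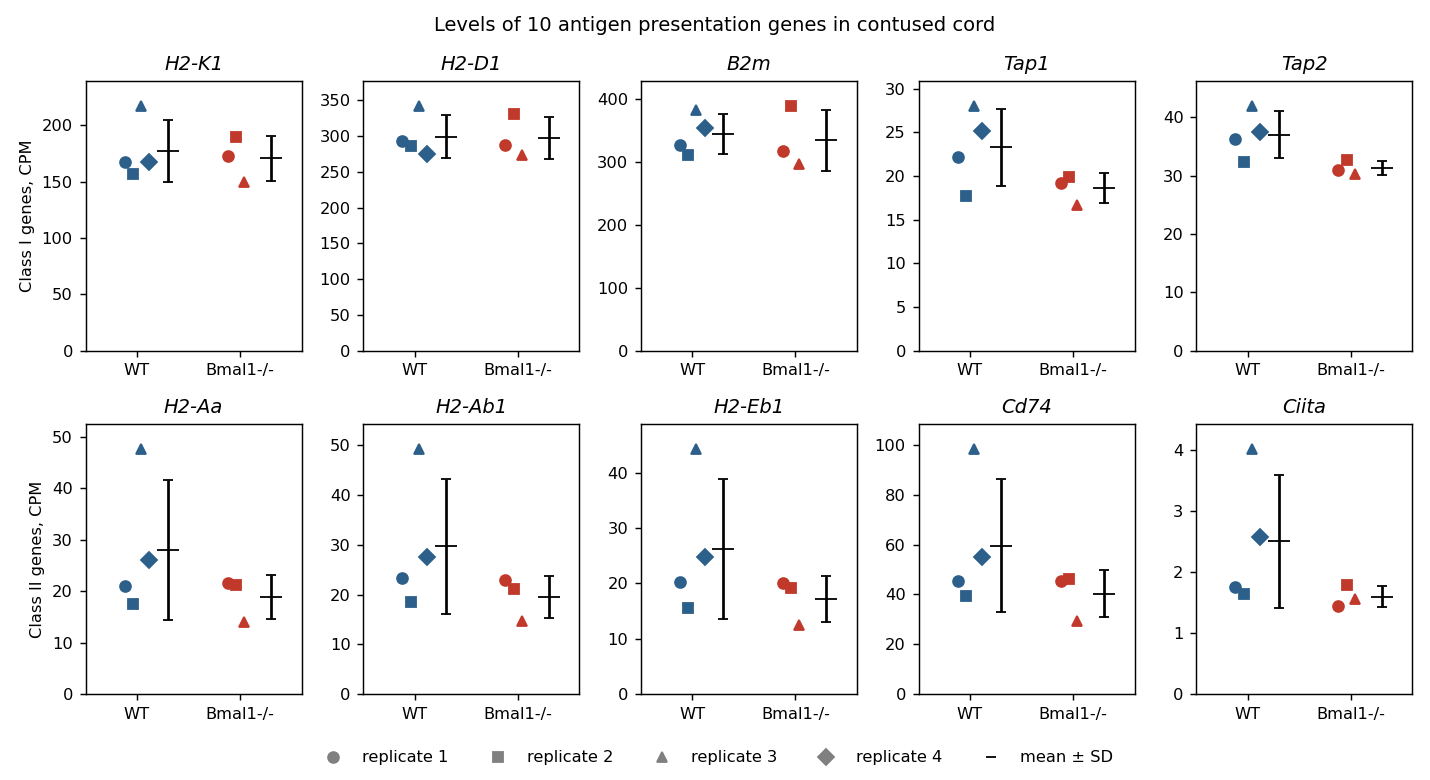
Level of each gene (y axis, CPM, from 0) in the 4 WT libraries (blue) and the 3 libraries labelled Bmal1-/- (red), with symbols for replicates and bars for the mean ± SD. Groups overlap in all 10 panels, and WT replicate 3 (blue triangle) is the highest of 7 libraries in every panel except *B2m*.

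*H2-K1* and *H2-D1* encode the heavy chains of the classical class I molecules H2-K and H2-D, the proteins that hold the peptide. *H2-K1* stood at 173, 189.8 and 150.1 CPM in libraries labelled Bmal1-/-, replicates 1 to 3, and at 168, 156, 218 and 167 CPM in WT replicates 1 to 4. The groups overlapped, with WT replicate 3 above all others. The means were 171 ± 19.9 CPM (SD, n = 3) and 177 ± 27.4 CPM (SD, n = 4), and the log2 fold change was -0.053 ± 0.13 (SE, adjusted p = 0.822, edgeR quasi-likelihood test, 95% interval -0.37 to 0.26).

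*H2-D1* was higher in level, at 287, 331 and 274 CPM in libraries labelled Bmal1-/- and at 293, 285, 343 and 275 CPM in WT. The group means were nearly equal, at 297 ± 29.8 CPM (SD, n = 3) and 299 ± 30.0 CPM (SD, n = 4). The log2 fold change of *H2-D1* was -0.0076 ± 0.11 (SE, adjusted p = 0.972, edgeR), with a 95% interval of -0.25 to 0.24. Without WT replicate 3 the value was 0.060 for *H2-K1* and 0.064 for *H2-D1*, so these data give no direction. Part of their reads can belong to near copies: 3.10% of the 75-base stretches of *H2-K1* transcripts and 5.56% of those of *H2-D1* also occur in other genes, mostly of the *H2-Q* and *H2-T* families and the other heavy chain.

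*B2m* encodes beta-2 microglobulin, the light chain that every class I heavy chain needs to fold and reach the surface. It stood at 317, 390.3 and 297 CPM in libraries labelled Bmal1-/- and at 328, 311, 384 and 355 CPM in WT. Its highest and lowest libraries were both labelled Bmal1-/-, replicates 2 and 3. The log2 fold change was -0.041 ± 0.12 (SE, adjusted p = 0.848, edgeR quasi-likelihood test, 95% interval -0.32 to 0.24), and it was 0.014 without WT replicate 3.

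*Tap1* and *Tap2* encode the subunits of the transporter that brings peptides from the cytosol into the endoplasmic reticulum for class I loading. *Tap2* stood at 31.0, 32.7 and 30.3 CPM in libraries labelled Bmal1-/- and at 36.2, 32.3, 42.0 and 37.5 CPM in WT. The groups met only where WT replicate 2 fell below replicate 2 labelled Bmal1-/-. With 31.3 ± 1.26 CPM (SD, n = 3) against 37.0 ± 3.98 CPM (SD, n = 4), the log2 fold change was -0.24 ± 0.094 (SE, 95% interval -0.46 to -0.023). The adjusted p was 0.212 in the edgeR quasi-likelihood test and 0.142 to 0.556 over the alternatives, so it did not pass. The value was -0.18 without WT replicate 3.

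*Tap1* stood at 19.2, 19.9 and 16.6 CPM in libraries labelled Bmal1-/- and at 22.2, 17.7, 28.1 and 25.1 CPM in WT. Again WT replicate 2 was the library that lay within the other group. The log2 fold change was -0.32 ± 0.16 (SE, adjusted p = 0.278, edgeR, 95% interval -0.70 to 0.048), and -0.22 without WT replicate 3. Exons of *Tap1* overlap those of *Psmb9* on the opposite strand, and those of *Tap2* overlap *Gm15821* and *Gm20496*. The study used a stranded library kit, but the strand setting of the counting is not given in the sources used here. Whether the counts of these genes hold reads from the opposite strand is therefore not known.

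*H2-Aa* and *H2-Ab1* encode the alpha and beta chains of I-A, the class II molecule that C57BL/6 mice display. *H2-Aa* stood at 21.5, 21.1 and 13.98 CPM in libraries labelled Bmal1-/- and at 21.0, 17.5, 47.7 and 25.97 CPM in WT. Leaving WT replicate 3 aside, the groups overlapped, and WT replicate 3 held 2.22 times the mean of the other WT libraries. The means were 18.9 ± 4.23 CPM (SD, n = 3) and 28.03 ± 13.6 CPM (SD, n = 4), and the log2 fold change was -0.57 ± 0.35 (SE, adjusted p = 0.357, edgeR quasi-likelihood test, 95% interval -1.40 to 0.26). Without WT replicate 3 it was -0.19, with an adjusted p of 0.611.

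*H2-Ab1* ran in step with its partner, at 22.8, 21.1 and 14.7 CPM in libraries labelled Bmal1-/- and at 23.3, 18.6, 49.3 and 27.6 CPM in WT. The means were 19.5 ± 4.27 CPM (SD, n = 3) and 29.7 ± 13.6 CPM (SD, n = 4). The log2 fold change was -0.60 ± 0.34 (SE, adjusted p = 0.323, edgeR, 95% interval -1.40 to 0.19), and -0.25 without WT replicate 3. As for *H2-Aa*, the lowest library was replicate 3 labelled Bmal1-/- and the highest WT replicate 3, which are both from males.

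*H2-Eb1* encodes the beta chain of I-E, a molecule that C57BL/6 mice do not display because their alpha chain gene for it is not expressed, while *H2-Eb1* itself is transcribed. It stood at 20.002, 19.1 and 12.5 CPM in libraries labelled Bmal1-/- and at 20.3, 15.6, 44.4 and 24.8 CPM in WT. As for I-A, WT replicates 3 and 4 were highest and replicate 3 labelled Bmal1-/- was lowest. The log2 fold change was -0.61 ± 0.36 (SE, adjusted p = 0.344, edgeR quasi-likelihood test, 95% interval -1.46 to 0.24), and -0.23 without WT replicate 3.

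*Cd74* encodes the invariant chain, which guides new class II molecules to the endosome and blocks their groove until then. It was the class II member of highest level, at 45.2, 46.1 and 29.3 CPM in libraries labelled Bmal1-/- and at 45.4, 39.5, 98.5 and 54.8 CPM in WT. Replicates 1 and 2 labelled Bmal1-/- were above WT replicate 2 and close to WT replicate 1. The means were 40.2 ± 9.46 CPM (SD, n = 3) and 59.6 ± 26.7 CPM (SD, n = 4), and the log2 fold change was -0.57 ± 0.33 (SE, adjusted p = 0.339, edgeR, 95% interval -1.35 to 0.21). Without WT replicate 3 it was -0.21.

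*Ciita* encodes the class II transactivator, the factor without which class II genes are hardly transcribed. It was the member of lowest level, at 1.45, 1.79 and 1.55 CPM in libraries labelled Bmal1-/- and at 1.76, 1.65, 4.02 and 2.57 CPM in WT. These rest on 57 to 161 counts, and at 57 counts the counting error alone is 13.2%. Replicates 1 and 3 labelled Bmal1-/- lay below all WT libraries, and replicate 2 did not. The log2 fold change was -0.65 ± 0.33 (SE, adjusted p = 0.294, edgeR quasi-likelihood test, 95% interval -1.42 to 0.13), and -0.32 without WT replicate 3. Its exons overlap those of *Dexi* on the opposite strand.

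**Figure D2:**
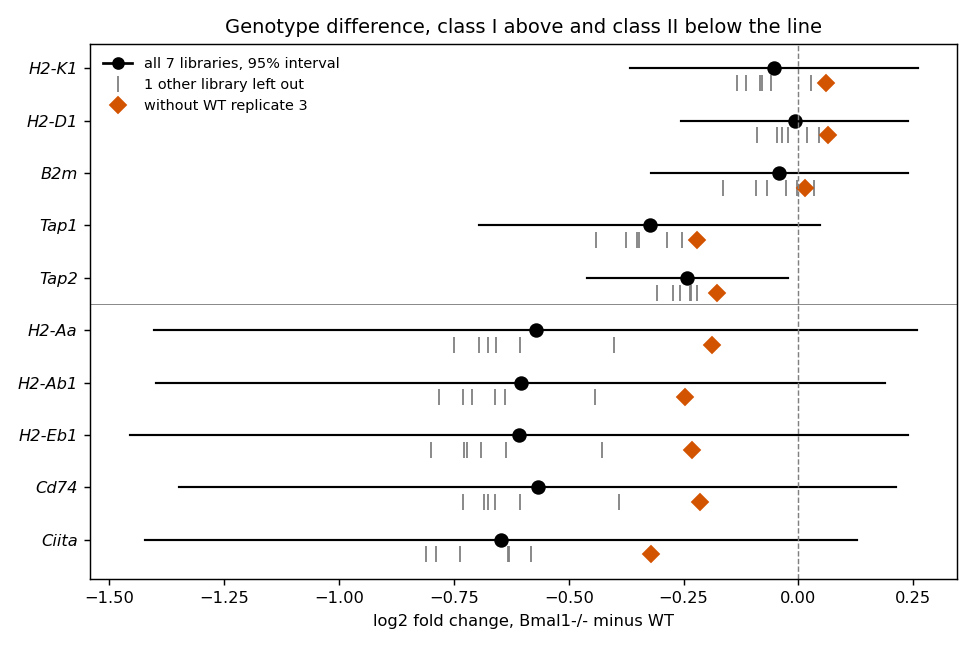
Log2 fold change of each gene (x axis, libraries labelled Bmal1-/- minus WT) with its 95% interval (black), after leaving out 1 library (grey ticks) and without WT replicate 3 (orange diamonds). Intervals of class II genes reach to -1.35 or lower and to above 0, and each class II diamond lies nearer to 0 than the value from all 7 libraries.

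The intervals show what each class could hide. For the class I heavy chains and *B2m* they end at -0.37 and 0.26 on the log2 scale at the widest, so larger changes in either direction lie outside. For the 5 class II genes the SE was 0.33 to 0.36, and the intervals hold both no difference and values down to -1.35 or lower. The intervals of *Tap1* (-0.70 to 0.048) and *Tap2* (-0.46 to -0.023) lay lower than those of the other class I genes. That of *Tap2* left out 0, though the gene did not pass the adjusted threshold. The data therefore narrow the difference of each class I gene more than that of the class II genes. In neither class is a difference shown to be absent.

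The classes were also compared within each library by the mean log2 CPM over 5 genes. For class II it was 3.87, 3.89 and 3.38 in the libraries labelled Bmal1-/- and 3.93, 3.68, 5.06 and 4.26 in WT. For class I it was 6.63, 6.78 and 6.51 in the libraries labelled Bmal1-/- and 6.72, 6.58, 6.995 and 6.77 in WT. The group difference was -0.52 for class II against a pooled SD of 0.50, and -0.13 for class I against a pooled SD of 0.16. The differences were -0.24 for class II and -0.052 for class I without WT replicate 3. With all 7 libraries both differences were about the size of the spread between mice, and no test was made on these means of chosen genes.

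Within a mouse, the class II mean minus the class I mean was -2.75, -2.89 and -3.13 log2 units in the libraries labelled Bmal1-/-. In WT replicates 1, 2 and 4 it was -2.79, -2.90 and -2.51 log2 units, and in WT replicate 3 it was -1.93. WT replicate 3 was thus the library with the most class II RNA relative to class I. Summed over the 5 genes of each class, class II CPM amounted to 0.0937 to 0.134 of class I CPM in libraries labelled Bmal1-/-, to 0.115 to 0.158 in the other 3 WT libraries and to 0.241 in WT replicate 3.

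**Figure D3:**
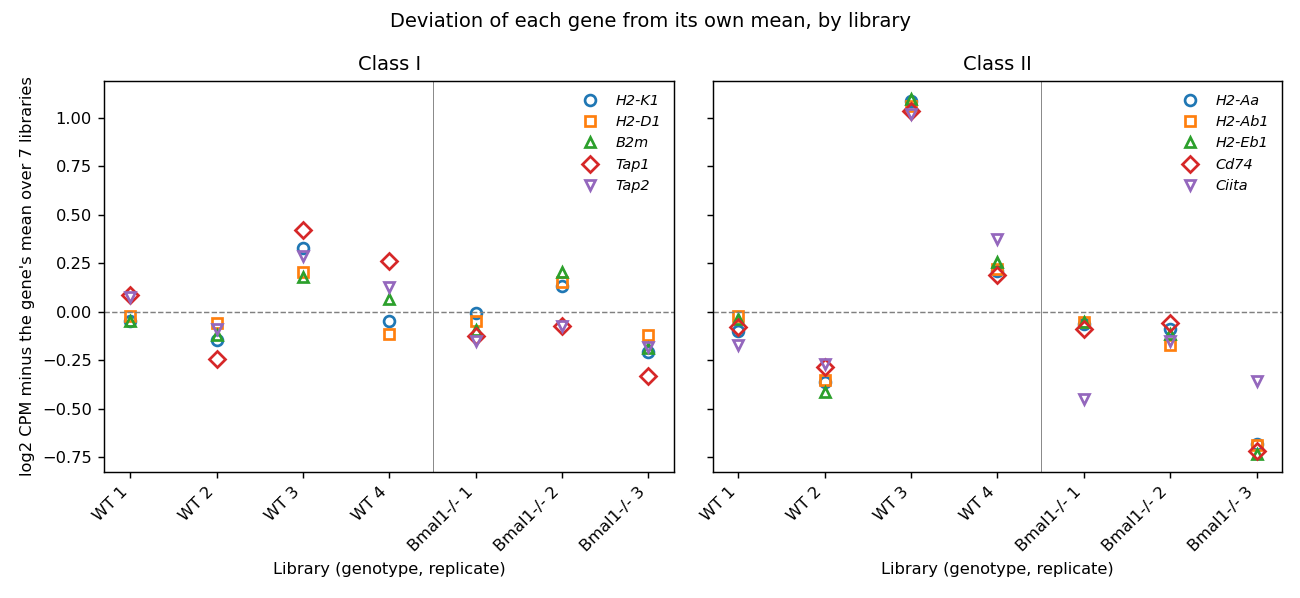
Deviation of each gene's log2 CPM from its own mean over 7 libraries (y axis), by library (x axis, WT to the left of the line), class I on the left and class II on the right. The 5 class II genes move together, with WT replicate 3 highest and replicate 3 labelled Bmal1-/- lowest for every one of them except *Ciita*, and class I genes move over a smaller range.

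Per kb of annotated exon, which allows levels of different genes to be compared, the order in WT was *B2m* (401 ± 37.0 CPM per kb, SD, n = 4), *H2-D1* (116 ± 11.6), *H2-K1* (60.3 ± 9.31), *Cd74* (35.5 ± 15.9), *H2-Eb1* (13.5 ± 6.51), *H2-Ab1* (11.6 ± 5.29), *Tap2* (9.79 ± 1.05), *H2-Aa* (7.38 ± 3.57), *Tap1* (4.25 ± 0.807) and *Ciita* (0.262 ± 0.115). In the libraries labelled Bmal1-/- the order was the same except that *Tap2* (8.28 ± 0.334 CPM per kb, SD, n = 3) stood above *H2-Ab1* (7.61 ± 1.66). In WT the bands of mean ± SD of neighbouring genes overlapped from *H2-K1* down to *Tap1*, whereas *B2m*, *H2-D1* and *Ciita* stood apart from their neighbours. The length counts every annotated exon, used or not, so close places depend on the annotation.

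The class II genes kept nearly fixed proportions in all 7 mice. Per kb, *H2-Aa* was 0.607 to 0.678 of *H2-Ab1*, *H2-Eb1* was 1.11 to 1.202 times it and *Cd74* 2.98 to 3.35 times it, spans of at most 1.124-fold between the lowest and highest library. Over the same libraries the level of *H2-Ab1* itself spanned 3.35-fold. The ratio of *Ciita* to *H2-Ab1* was looser and spanned 1.66-fold. In class I, the ratio of *H2-K1* to *H2-D1* was 0.481 to 0.557, that of *B2m* to *H2-D1* 3.25 to 3.88 and that of *Tap1* to *Tap2* 0.378 to 0.462. WT replicate 3 was within the range of the other libraries for the class II ratios, so it carried more class II RNA in the usual proportions.

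Described by Pearson's r of log2 CPM over 7 libraries, without a test, the 10 pairs within class II had a median r of 0.994 and those within class I one of 0.729. *Tap1* and *Tap2* correlated with each other at 0.962. They were also nearer to the class II genes (0.892 to 0.941) than to *H2-D1* (0.494 and 0.506). These points share mice, library and scaling, and WT replicate 3 and replicate 3 labelled Bmal1-/- set their ends. The genes outside the list most like the class II mean were *Arhgap9*, *Apobr*, *Ddx21*, *Tmem106a* and *Arhgdib*, with r of 0.996 to 0.998 over 7 libraries and 0.966 to 0.994 without those 2 libraries. Those most like the class I mean were *Avpi1*, *Bmp1*, *Sprtn*, *Ttc7* and *Tcn2*, with r of 0.982 to 0.985, and 0.914 to 0.980 without the same libraries.

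The sexes were unevenly placed, with 1 male among the libraries labelled Bmal1-/- and 2 in WT. Among females, *H2-Aa* was 21.5 and 21.1 CPM in the libraries labelled Bmal1-/- and 21.0 and 17.5 CPM in WT. The female groups of *H2-Ab1*, *H2-Eb1*, *Cd74* and *Ciita* overlapped, with *Ciita* at 1.45 and 1.79 CPM against 1.76 and 1.65 CPM. Among males *H2-Aa* was 13.98 CPM in the library labelled Bmal1-/- and 47.7 and 25.97 CPM in WT. A genotype by sex term gave a male minus female difference of -1.54 ± 0.46 (SE) for *H2-Aa* on the log2 scale, with an adjusted p of 0.404 in the edgeR quasi-likelihood test. The term was below 0 for all 10 members, and 5 of them (*H2-Aa*, *H2-Ab1*, *H2-Eb1*, *Cd74* and *Tap1*) had an unadjusted p under 0.05, against 12.2% of the 16165 genes in that fit (6.09% with a term below 0). Of these 5, 4 are class II genes whose levels move together over the libraries, so they are not separate observations. None of the 16165 genes passed the adjusted threshold, and the male side rests on 1 mouse labelled Bmal1-/- and on WT replicate 3.

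The other genes of the pathway were read from the same fit in lists drawn up by function. Peptides for class I are cut by the immunoproteasome, trimmed, and loaded with the help of chaperones, and all 12 genes of this list had a log2 fold change below 0, with a median of -0.27 (-0.19 without WT replicate 3). None passed the test. An unadjusted p under 0.05 was seen for 2, where 12.2% of all genes had one in the lower direction. In 5, every library labelled Bmal1-/- was below every WT library, where 13.5% of all genes were. The most abundant were *Calr*, *Canx* and *Pdia3*, chaperones that serve many proteins of the endoplasmic reticulum besides class I. *Calr* stood at 626, 598 and 542 CPM in libraries labelled Bmal1-/- and at 675, 667, 880.3 and 709.6 CPM in WT. Its log2 fold change was -0.32 ± 0.12 (SE, adjusted p = 0.214 in edgeR and 0.111 in DESeq2), and -0.22 without WT replicate 3. *Pdia3* gave -0.29 and *Canx* -0.087, both with groups that did not overlap and neither past the threshold.

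Of the class Ib and CD1 genes, which present to narrower sets of lymphocytes, 12 were tested, 9 had a value below 0 and 3 above, and none passed in the edgeR quasi-likelihood test. The median was -0.13, and -0.064 without WT replicate 3. The most abundant, *H2-T22*, *H2-T23* and *H2-Q4*, had log2 fold changes of -0.084, -0.088 and -0.33. *H2-Q6*, named after its values were seen, stood at 5.92, 5.18 and 4.42 CPM in libraries labelled Bmal1-/- and at 2.83, 3.29, 3.74 and 2.77 CPM in WT. Its groups did not overlap, with a log2 fold change of 0.71 ± 0.16 (SE, adjusted p = 0.0824 in edgeR, 0.0333 in edgeR without WT replicate 3 and 0.00271 in DESeq2). Here and below, such values stand beside larger numbers of calls over all genes. DESeq2 called 1495 of 18916 genes and edgeR without WT replicate 3 called 730 of 15664, against 247 of 15743 in the edgeR fit of all libraries. *H2-Q6* belongs to the near-identical *H2-Q* genes, among which reads may be split.

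Class II loading and processing depends on H2-DM, H2-O and endosomal proteases, and of 9 genes tested 6 were below 0 and 3 above, none past the threshold, with a median of -0.10 (0.030 without WT replicate 3). Its genes of highest CPM were *Lgmn*, *Ctsl* and *Ctss*, all lysosomal proteases. *Ctsl* encodes cathepsin L, an enzyme of many cell types that also cuts the invariant chain. *Ctsl* stood at 1047, 1044 and 960.0 CPM in libraries labelled Bmal1-/- and at 673, 591, 838 and 662 CPM in WT. The groups did not overlap, and the log2 fold change was 0.56 ± 0.13 (SE, adjusted p = 0.0853 in edgeR, 0.00895 in edgeR without WT replicate 3 and 0.00128 in DESeq2). *Lgmn* and *Ctss* had values of -0.24 and -0.064, and of -0.079 and 0.096 without WT replicate 3.

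Of 7 genes for the factors of the X and Y boxes, 1 passed the test. *Rfxank*, a subunit of the RFX complex, rose from 25.7, 26.5, 26.4 and 27.6 CPM in WT to 35.2, 35.02 and 33.3 CPM in libraries labelled Bmal1-/-, a log2 fold change of 0.38 ± 0.058 (SE, adjusted p = 0.0303, edgeR quasi-likelihood test). Among all genes 0.654% were called higher. Of the other 6, 4 were below 0 and 2 above, and the list median was -0.039 (-0.055 without WT replicate 3). Exons of *Rfxank* overlap those of *Nr2c2ap* on the opposite strand. The call was lost when any library other than WT replicate 3 was left out, with sex as a covariate (adjusted p = 0.0629), with upper-quartile scaling (0.0531) and with a replicate block (0.388).

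The interferon gamma pathway, the main inducer of *Ciita* and of *Tap1*, had 9 genes tested, 6 below 0 and 3 above, none past the threshold. *Ifng* itself was at 0 in 5 of 7 libraries and at no more than 0.0250 CPM in the others. *Jak1* and *Jak2*, kinases of the interferon gamma receptor and among the most abundant of the list, had log2 fold changes of 0.010 and 0.015. *Irf1*, named after its values were seen, is a transcription factor that acts at class I promoters, and it stood at 14.8, 16.8 and 12.2 CPM in libraries labelled Bmal1-/- and at 19.9, 19.2, 24.9 and 20.7 CPM in WT. The groups did not overlap, and the log2 fold change was -0.53 ± 0.14 (SE, adjusted p = 0.111 in edgeR and 0.0127 in DESeq2), and -0.45 without WT replicate 3.

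Of 5 costimulatory genes tested, whose products give T cells the second signal beside MHC and peptide, 3 were below 0 and 2 above, none past the threshold, with a median of -0.23 (-0.15 without WT replicate 3). *Icosl*, the most abundant with *Cd86* and *Cd274*, was 12.1, 12.7 and 12.1 CPM in libraries labelled Bmal1-/- and 14.2, 15.3, 15.7 and 16.6 CPM in WT. Its groups did not overlap, at a log2 fold change of -0.33 ± 0.080 (SE, adjusted p = 0.0999 in edgeR and 0.00806 in DESeq2). *Cd86* and *Cd274* had values of 0.13 and 0.071.

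In bulk tissue, fewer cells of a type and less RNA per cell cannot be told apart. The marker genes of cells that carry class II are therefore given beside it. Of 8 macrophage markers 7 were below 0, with a median of -0.38, and their summed level was 1638 to 2138 CPM in libraries labelled Bmal1-/- and 1632 to 3337 CPM in WT. Of 7 microglia markers 5 were below 0, with a median of -0.10 and sums of 981 to 1136 and 987 to 1278 CPM. Of 8 dendritic cell markers 7 were below 0, with a median of -0.72 and sums of 32.8 to 36.2 and 33.3 to 37.0 CPM. That median rests on genes near the floor, as *Xcr1*, *Clec9a*, *Batf3*, *Ccr7* and *Cd209a* had at most 58 counts in any library. The more abundant *Flt3*, *Zbtb46* and *Itgax* gave 0.43, -0.25 and -0.40. None of the macrophage, microglia or dendritic cell markers passed the test.

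Lymphocyte markers were scarce. The 4 B cell markers tested had a median of -0.44, none called, and the list summed to 2.03 to 2.29 CPM in libraries labelled Bmal1-/- and 2.22 to 4.02 CPM in WT. Of the T cell markers 2 were tested, *Cd4* and *Lck*, none called, with a median of -0.63. The list summed to 1.14 to 1.70 and 1.95 to 2.15 CPM. Most of each sum was *Lck*, at 0.837 to 1.30 CPM in libraries labelled Bmal1-/- and 1.28 to 1.59 CPM in WT, which overlapped. With no filter beyond 1 count, 6 markers were tested and the median was -0.21. *Cd3d*, *Cd3e* and *Cd3g*, which define T cells, were at 0.129 CPM or below in every library, and *Cd3d* was at 0 in 3 of them.

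Markers of other cells are given in the same way. All 6 neutrophil markers were below 0 with a median of -0.78, none called, and summed to 24.6 to 51.5 CPM in libraries labelled Bmal1-/- and 30.0 to 106 CPM in WT. All 6 endothelial markers were below 0 with a median of -0.52, and 1 passed, where 0.915% of all genes were called lower. It was *Cdh5*, which fell by 0.85 on the log2 scale (adjusted p = 0.0466, edgeR). Its call was likewise lost when any library but WT replicate 3 was left out. The endothelial sums were 337 to 387 and 399.8 to 654 CPM. Spinal cord markers, from glia and neurons, were 6 above 0 and 2 below with a median of 0.40, none called, and their sums of 31834 to 38368 and 28791 to 37005 CPM fit the labelled tissue. Without WT replicate 3 the medians were -0.087 for macrophages, -0.041 for microglia, -0.42 for dendritic cells, -0.073 for B cells, -0.63 for T cells, -0.42 for neutrophils, -0.28 for endothelium and 0.23 for spinal cord. The part of these cells in the class II values was not tested.

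**Figure D4:**
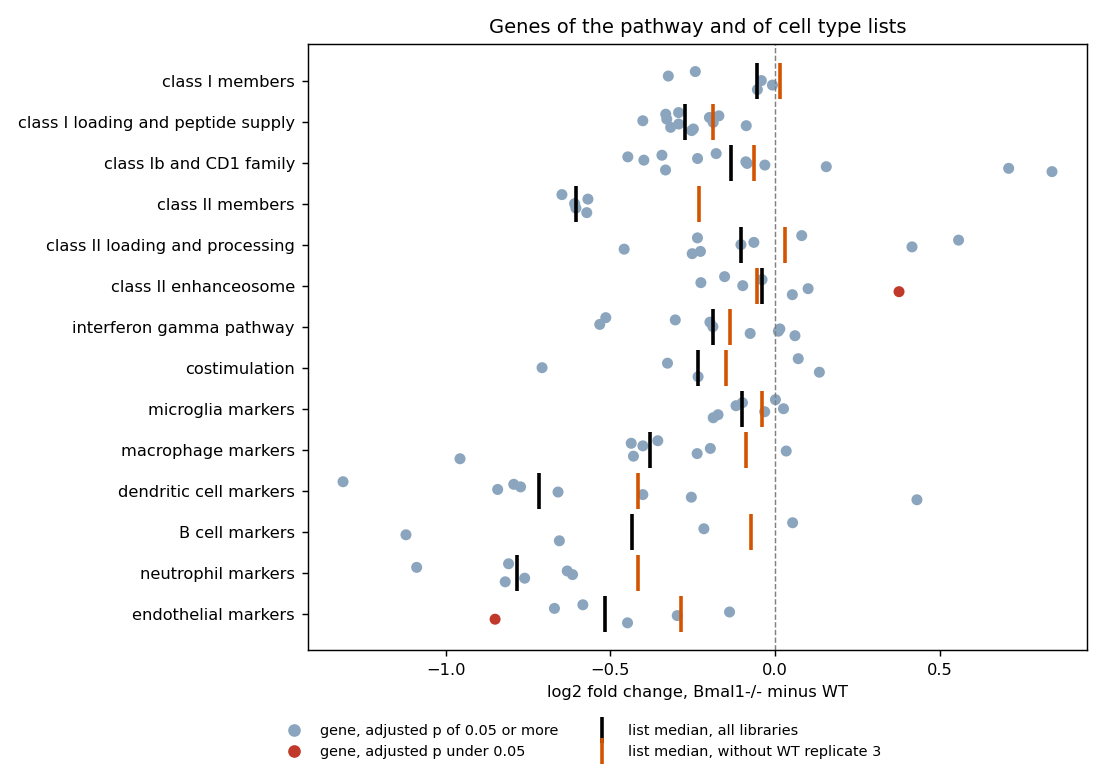
Log2 fold change (x axis, libraries labelled Bmal1-/- minus WT) of each tested gene of each list (rows), red where the adjusted p is under 0.05, with the list median over all libraries (black bar) and without WT replicate 3 (orange bar). The class II median moves from -0.60 to -0.23 when that library is left out, and *Rfxank* and *Cdh5* are the red points.

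WT replicate 3 differed from the other WT libraries in these same markers. It held 2.02 to 2.22 times the mean of the other 3 WT libraries for the class II genes and 1.16 to 1.33 times for class I. The median ratio over markers was 1.73 for macrophages, 2.18 for neutrophils, 1.604 for endothelium, 1.46 for dendritic cells, 0.919 for microglia and 0.714 for spinal cord. Its *Ptprc*, the pan-leukocyte gene for CD45, was 1.41 times the others.

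Divided by the CPM of *Itgam*, which marks myeloid cells, the summed class II CPM was 1.42, 1.41 and 1.16 in the libraries labelled Bmal1-/- and 1.30, 1.31, 1.77 and 1.38 in WT. Divided by *Ptprc* it was 2.02, 1.78 and 1.36 in the libraries labelled Bmal1-/- and 2.17, 1.86, 3.17 and 2.16 in WT. Groups overlapped on both scales, and WT replicate 3 stayed the highest library on both.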

How the data were processed

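Poly-A libraries, made with a stranded kit (TruSeq Stranded mRNA), were sequenced on a NextSeq 500. The deposited values are raw counts per gene: the authors aligned reads to the mouse genome with Tophat2 (2.0.13) and counted them with HTSeq (0.10.0), with quality checks in FastQC (0.10.1), as the methods and the submitters' processing notes give. The annotation release and the strand setting of the counting are not given in the sources used here. GENCODE M21 (GRCm38) served for positions and exon lengths.

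From the counts, genes with too few counts were removed (filterByExpr) and genotypes were compared with edgeR 4.0.16 (TMM scaling, quasi-likelihood test, all 7 libraries, no covariate, R 4.3.3), with Benjamini-Hochberg adjustment over 15743 genes and a threshold of 0.05. CPM are TMM-scaled, and class means use log2 CPM. Intervals at 95% come from the SE and the degrees of freedom of the fit. On simulated counts for these 15743 genes and this comparison, with 200 genes changed, 87% of those changed by 1.5 on the log2 scale and 31% of those changed by 0.6 were recovered, with 7 false calls (5.6%). The changed genes were drawn at random, so these shares do not tell how often a change in the class II genes would be found. Depth was 38529644 to 44096737 counts, and intervals rest on the spread between mice, 1 library each.

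DESeq2 1.42.0, limma-voom 3.58.1, other scalings, no filter, sex as a covariate, a replicate block and each library left out were tried as alternatives. Members and lists were chosen with earlier results of these data known. Named genes are *Arntl*, the 10 members, the called genes of each list or otherwise up to 3 of its most abundant, and 5 genes most correlated with each class. Other names are given as chosen after their values were seen, or serve to check labels, markers and overlaps. *H2-T10*, *Cd1d2*, *Ifi30*, *Ighm* and *Trac* were not analysed here. Among the most abundant genes of the interferon gamma list, 1 is not reported here. Figures were drawn with matplotlib 3.10.9.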

Additional observations from a re-analysis of the deposited data

Results flagged for a closer look

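In both classes a heavy or alpha chain gene had genotype differences of opposite direction in the sexes. For *H2-Aa* the difference between genotypes was 1.54 log2 units lower in males than in females (-1.54 ± 0.46, SE), with both females labelled Bmal1-/- above both WT females and the male labelled Bmal1-/- below both WT males. *H2-K1* gave -0.52 ± 0.23 (SE) with the same arrangement of mice. The female groups of *H2-Aa* lay close together, at 21.10 CPM in replicate 2 labelled Bmal1-/- and 20.97 CPM in WT replicate 1. For every other member of both classes the groups overlapped among females. The interaction itself was tested with the edgeR quasi-likelihood test over 16165 genes and did not pass for either gene (adjusted p = 0.404 for both). Only 1 male was labelled Bmal1-/-, and WT replicate 3 is 1 of the 2 WT males.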

How the results depend on the processing

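None of the 10 members was called under any of 14 alternatives. The 7 other members kept a log2 fold change below 0 in all 14, but *B2m*, *H2-D1* and *H2-K1* changed sign when single libraries were left out. With 1 library left out, values ranged from -0.16 to 0.035 for *B2m*, from -0.090 to 0.064 for *H2-D1* and from -0.13 to 0.060 for *H2-K1*. The sign turned without WT replicate 3 (0.014, 0.064 and 0.060) and without replicate 3 labelled Bmal1-/- (0.035, 0.045 and 0.028), and for *H2-D1* also without replicate 1 labelled Bmal1-/- (0.018). The cause was not tested. The class II median ranged from -0.78 (without WT replicate 2) to -0.23 (without WT replicate 3). That of class I ranged from -0.16 (without replicate 2 labelled Bmal1-/-) to 0.028 (without replicate 3 labelled Bmal1-/-). Over all genes, 247 calls in the edgeR fit became 1495 with DESeq2 and 57 to 730 with 1 library left out, the highest without WT replicate 3. With a replicate block there were 0 calls over all genes, and 0 members at an unadjusted p under 0.05. In the edgeR fit without WT replicate 2, 4 members were under that unadjusted level and none was called. The share of all genes at that level was not taken for either fit. Same-numbered libraries correlated at -0.17, 0.18 and -0.29 in their deviations from the group means. So few values cannot decide whether the numbers pair the samples. Same-numbered libraries share their sex, and the study's supplement describes matching knockouts to WT controls by age and sex. *Ciita*, at 57 counts in its lowest library, is the member that depth limits most.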
